A study of Drosophila melanogaster with 4 samples.

Results

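The short H3K36me3 regions described here are stretches of the genome under 2500 bases that the authors called enriched for histone H3 trimethylated at lysine 36, and that both ChIP-seq replicates hold. They were chosen by width and by presence in both replicates. They came from the region list deposited at the level of the series (the series-level set), from the arms 2L, 2R, 3L, 3R, 4 and X, and each shared at least 1 base with a region in the list of each replicate. The rule took 236 of the 4468 series-level regions, or 236 of the 4178 on the arms. The chromatin came from Drosophila melanogaster embryos of the wild-type laboratory strain Oregon-R, labelled as 14 to 16 h old and crosslinked with formaldehyde. The labels list 2 H3K36me3 ChIP libraries and 2 input libraries, 1 input for each ChIP list, and no label ties the replicates to separate collections of embryos, so that their spread may be only technical. Replicate 1 held 4068 regions on the arms, and replicate 2 held 4197. There are no read counts in the lists, so the depth behind a region is unknown.

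Trimethylation of lysine 36 on histone H3 is laid down in flies mainly by Set2, an enzyme that travels with elongating RNA polymerase II, and it accumulates over the bodies of transcribed genes, most of all towards their 3′ ends. In budding yeast, readers of the mark include a deacetylase complex that restrains transcription from starting inside genes. On the male X chromosome the mark is also recognised by the chromodomain protein MSL3, a subunit of the dosage compensation complex. Regions of the mark therefore tend to be broad, and a narrow one stands at the lower end of what such a profile holds. Coordinates are those of FlyBase release 5, per the file headers. No annotation of that release was used here, so the genes under the regions are not named.

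The short shared regions were weak as well as narrow. Their median width was 2238 bases, with the middle 50% between 2061.5 and 2369 bases, and the narrowest measured 1651 bases. Their median deposited score, the number that the authors gave each region and whose scale is not stated, was 0.515, with the middle 50% between 0.424 and 0.655. The 414 short regions that were not in both replicates had a median score of 0.389 and a median width of 1635 bases. The 3528 wider regions had a median score of 1.61 and a median width of 5290 bases. The median short shared region outscored 12.8% of the arm regions of the series-level set, against 5.96% for the other short regions and 57.6% for the wider ones. Width and overlap chose these groups, and score moves with width, so these values describe the groups and were not tested.

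Few of the short shared regions were strong. A score of 1 or more was reached by 8 of the 236, against 9 of the 414 other short regions and 2971 of the 3528 wider ones. All 9 of those other short regions lay in neither replicate, and 8 of them were narrower than the narrowest short shared region. Of the short shared regions, 224 scored below 0.880, the value under which 25% of all arm regions fell. Wider regions had higher scores across the 236 regions (Pearson r = 0.652, Spearman rho = 0.760). Both come from 1 call of 1 list, so this is a description across regions, and regions are not independent replicates.

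**Figure D1:**
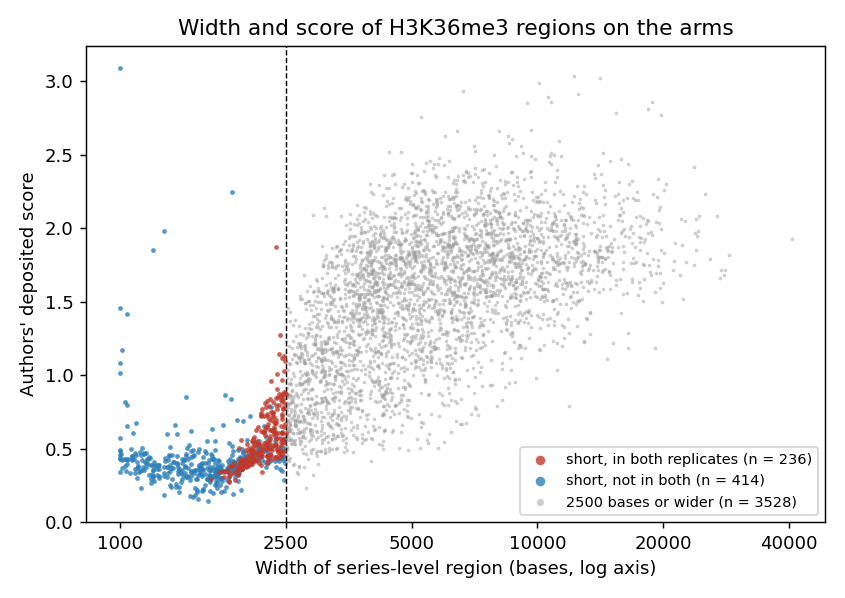
Each point is a series-level region on the arms, with its width in bases on a log axis and the authors' deposited score on the vertical axis, and the dashed line marks 2500 bases. The 236 short shared regions sit just left of that line, mostly at scores below 0.880, whereas the other short regions spread down to 1001 bases and the wider ones had a median score of 1.61.

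The share of short regions that both replicates held depended on width within the short class. Both replicates held 236 of the 650 short arm regions (36.3%, 95% Wilson interval 32.7 to 40.1), 200 were held by replicate 1 alone, 37 by replicate 2 alone and 177 by neither. Between 1000 and 1499 bases, 0 of 161 regions were held by both, a share with a Wilson interval up to 2.33%. The count was 41 of 225 between 1500 and 1999 bases (18.2%, interval 13.7 to 23.8), 83 of 123 between 2000 and 2249 bases (67.5%, 58.8 to 75.1) and 112 of 141 between 2250 and 2499 bases (79.4%, 72.0 to 85.3). Just above the limit, between 2500 and 2999 bases, it was 302 of 336 (89.9%, 86.2 to 92.7). These intervals take regions as independent and hold counting error alone. The narrowest arm regions measured 1309 bases in replicate 1 and 1301 in replicate 2, whereas the series-level set went down to 1001 bases and held 96 arm regions narrower than any in the replicates. No region of the replicates was as narrow as those 96.

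**Figure D2:**
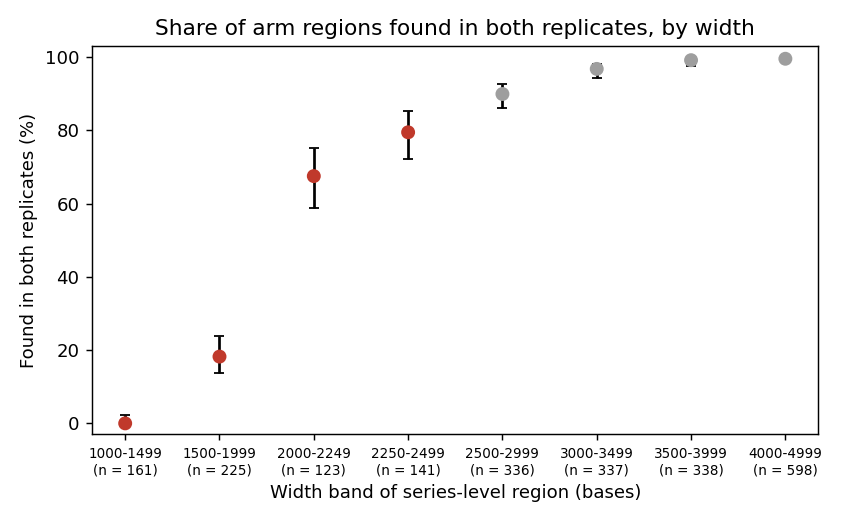
Points give the percent of series-level arm regions in each width band that share at least 1 base with a region of each replicate, and bars are 95% Wilson intervals. The share is 0% in the narrowest band, 67.5% between 2000 and 2249 bases, 79.4% between 2250 and 2499 bases and 89.9% just above the limit of 2500 bases. The bands are too wide to show whether there is a step at that limit.

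Scores of the regions nearest the limit overlapped on its 2 sides, while medians kept rising across it. Among regions that both replicates held, the median score was 0.631 for the 112 between 2250 and 2499 bases. For the 302 between 2500 and 2999 bases it was 0.909. The widest short shared regions lay on 2R from 2934666 to 2937164 (2499 bases, score 0.608), on X from 11702876 to 11705370 (2495 bases, score 0.874) and on 2R from 10532334 to 10534816 (2483 bases, score 1.10). The narrowest regions just outside it that both replicates held all lay on X. They ran from 14813006 to 14815510 (2505 bases, score 0.583), from 968414 to 970920 (2507 bases, score 0.778) and from 16169950 to 16172456 (2507 bases, score 1.23). At the other end, the narrowest short shared regions lay on 3R from 11065566 to 11067216 (1651 bases, score 0.294), on 3L from 12479144 to 12480876 (1733 bases, score 0.339) and on 2L from 7693546 to 7695312 (1767 bases, score 0.348).

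The match in the replicates was closer than the rule asked for. Each of the 236 regions met exactly 1 region in replicate 1 and exactly 1 in replicate 2. The narrowest arm regions of the replicates measured 1309 and 1301 bases, so a region under 2500 bases had little room for more than 1. Of the 3528 wider regions, 3053 met exactly 1 region in each replicate and 424 were split into several in at least 1 replicate. In each of the 236 cases the 2 replicate regions also overlapped each other, as they did in all 3053 of those wider regions. Each of the 236 was matched by 50% of both lengths in both replicates. The replicate minimum widths of 1309 and 1301 bases left little room for either result to differ in a region under 2500 bases. The replicate 1 region was under 2500 bases in all 236 cases, and the replicate 2 region in 235. The exception, on 3R from 18197072 to 18199436, was 1823 bases wide in replicate 1 and 2698 in replicate 2. Median widths were 2094 bases in replicate 1 and 1886 in replicate 2 (mean 1990 ± 147, SD, n = 2).

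The edges were less exactly placed than those of wider regions, relative to the width. The 2 replicate regions of a short shared region had a median of 86.0% of their combined bases in common, with a range from 44.0% to 99.1%, against a median of 94.8% over the 3053 wider regions with 1 match in each replicate. The shift of the centre between replicates was similar in bases, with medians of 81.25 bases for the short shared regions and 72 for the wider ones. Replicate 1 regions started a median of 44.5 bases inside the series-level start and ended 45 bases inside its end, and replicate 2 regions 149.5 and 132 bases inside. Together the 236 regions spanned 0.520 Mb, or 2.17% of all series-level bases on the arms. Replicate 1 covered 93.2% of these bases and replicate 2 covered 84.0% (mean 88.6% ± 6.54, SD, n = 2), and both covered 81.1%.

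The 3 regions whose replicate widths differed most differed by 1.64 to 1.66 times. On X from 17688166 to 17690530, the region was 2302 bases wide in replicate 1 and 1387 in replicate 2. On 2R from 9780240 to 9782682, it was 2359 bases wide in replicate 1 and 1424 in replicate 2, and on 2R from 20837362 to 20839624, 1309 and 2146 bases in the same order. Replicate 1 was the wider in 184 of the 236 regions (78.0%, Wilson interval 72.3 to 82.8), against 2686 of the 3053 wider regions (88.0%, 86.8 to 89.1).

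Scores of the short shared regions stood low in both replicates. In replicate 1 the median was 0.559, above 8.10% of that list's arm regions, and in replicate 2 it was 0.709, above 5.60%. Of the 236 regions, 226 were among the lowest-scored 25% of arm regions in both replicates. Across the regions the 2 scores were related (Pearson r = 0.721, Spearman rho = 0.572), and without the highest-scored region Pearson's r was 0.635. It was 0.163 among the 41 regions under 2000 bases, where scores spanned a narrower range. Whether the relation extends to the narrowest regions was not tested. Over the 3053 wider regions Pearson's r was 0.948, where scores spanned a wider range. These are descriptions across regions of 2 libraries, with the width of the region shared by both axes.

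The score difference between replicates was not the same for short shared and wider regions. The median difference (replicate 1 minus replicate 2) was -0.14 over the 236 short shared regions, with the middle 50% between -0.25 and -0.04. It was 0.02 over the 3053 wider regions, which mix widths. Just above the limit, over 302 wider regions between 2500 and 2999 bases, it was -0.06, with the middle 50% between -0.18 and 0.06. The median of these narrowest wider regions thus lay between the other medians. The constant behind the score may differ between lists, so none of these medians has a meaning on its own. Only the change from short to wider regions is free of that constant. The difference in width moved with the difference in score. Where the replicate 1 region was wider by more bases than the replicate 2 region, its score was higher relative to replicate 2 (Pearson r = 0.431, Spearman rho = 0.543 across the 236 regions). The lowest score on the arms was 0.211 in replicate 1 and 0.414 in replicate 2. Each region compared here had to be called in both lists. The part of these floors in the difference, and in its change from short to wider regions, was not tested.

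**Figure D3:**
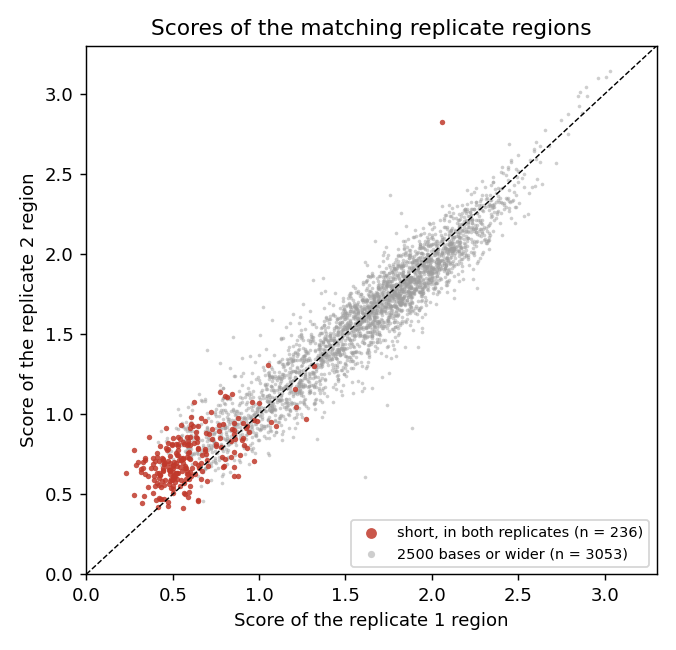
Each point is a series-level region with exactly 1 matching region in each replicate, with the deposited score of the replicate 1 region on the horizontal axis and that of the replicate 2 region on the vertical axis, and the dashed line marks equal scores. At the low end the 236 short shared regions lie further towards the replicate 2 side than the wider regions do (median differences of -0.14 and 0.02), and 1 region on X stands far from the rest at 2.06 in replicate 1 and 2.83 in replicate 2.

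The highest-scored short shared region lay on X from 17688166 to 17690530 (2365 bases). Its score was 1.87 in the series-level set, above 77.9% of arm regions, 2.06 in replicate 1, above 86.6%, and 2.83 in replicate 2, above 99.7%. The nearest other region lay 23567 bases away, and other regions covered 2.87% of the 25 kb to each side, so this strong narrow region stood almost alone. No other short shared region reached these values in any of the lists.

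The next 4 by score had more regions around them. The region on 3L from 1350562 to 1352986 scored 1.27 in the series-level set, 1.32 in replicate 1 and 1.30 in replicate 2. It lay 3345 bases from a region of 10653 bases on one side, with 137087 bases free of regions on the other. The region on 3L from 17647274 to 17649676 scored 1.14, 1.21 and 1.04 in the same order. The region on X from 15604604 to 15607074 scored 1.13, 1.20 and 1.16, and lay 779 bases from a domain of 25157 bases with a score of 2.23. The region on 3R from 15467964 to 15470404 scored 1.12, 1.27 and 0.972, and lay 265 bases from its neighbour. The 5 highest thus included 1 region next to a broad domain and 1 nearly without neighbours.

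The 5 lowest-scored lay on 2R, 3L, 2L and 3R. They ran on 2R from 12482286 to 12484110 (score 0.273 in the series-level set, 0.327 in replicate 1 and 0.663 in replicate 2) and on 3L from 20314994 to 20316824 (0.282, 0.331 and 0.492). The third, on 2L from 2374418 to 2376306 (0.285, 0.275 and 0.493), was wedged between neighbours 235 and 315 bases away. The others ran on 3R from 11065566 to 11067216 (0.294, 0.429 and 0.469) and on 2R from 16473074 to 16474854 (0.307, 0.286 and 0.682). Their replicate 1 and replicate 2 regions shared between 87.0% and 99.1% of their combined bases, so these lowest-scored regions were placed as alike in the replicates as the median short shared region or more so.

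In their median gap and median covered surroundings the short shared regions stood between the other short regions and the wider ones. The median gap to the nearest other series-level region was 2039 bases, against 3110 bases for the other short regions and 1695 for the wider ones. The gap was under 1 kb in 83 of 236 (35.2%, Wilson interval 29.4 to 41.5), against 25.8% of the other short regions and 38.4% of the wider ones. It was from 1 to under 5 kb in 90 (38.1%), against 35.5% of the other short regions and 35.7% of the wider ones. It was from 5 to under 25 kb in 46 (19.5%), against 27.5% and 20.9% in the same order. In both ranges the short shared regions did not stand between the others. The gap was 25 kb or more in 17 (7.20%), against 11.1% of the other short regions and 4.96% of the wider ones. In 193 of the 236 (81.8%, interval 76.4 to 86.2) the nearest region was a wider one, a share near the 84.4% of all arm regions that are wider, and the share was 76.6% for the other short regions and 85.3% for the wider ones. The nearest region was in 16 cases (6.78%) another short shared region, near the 5.65% of all arm regions that are short shared. In 27 cases (11.4%) it was a short region not in both replicates, against 15.9% for the other short regions and 8.96% for the wider ones. The nearest region had a median width of 4732 bases and a median score of 1.57. Other regions covered a median of 29.7% of the 25 kb to each side, against 24.6% for the other short regions and 30.6% for the wider ones. Surroundings covered by more than 50% were found for 13.6% of the short shared, 14.5% of the other short and 19.0% of the wider regions. The 336 wider regions between 2500 and 2999 bases had medians near those of the short shared regions, with a gap of 1976 bases and 29.4% covered. In the replicate lists the median gap from the matching region was 2346.5 bases in replicate 1 and 2666.5 in replicate 2 (mean 2507 ± 226, SD, n = 2).

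The other short regions were narrower, so the gap was also compared at like width. Between 1500 and 1999 bases the median gap was 1949 bases for 41 shared and 3784 for 184 unshared regions. Between 2000 and 2249 bases it was 1279 bases for 83 shared and 5489 for 40 unshared regions, and between 2250 and 2499 bases 2748 bases for 112 shared and 4435 for 29 unshared regions. The covered share of the surroundings was likewise higher for shared regions in the 3 bands, at 32.3% against 23.2%, 28.8% against 22.6% and 29.9% against 24.5%. A gap under 1 kb was found in 43.9%, 42.2% and 26.8% of the shared regions and in 23.9%, 22.5% and 24.1% of the unshared ones, in the same order of bands. Regions of 1 list are not replicates, so no test was made of these differences.

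**Figure D4:**
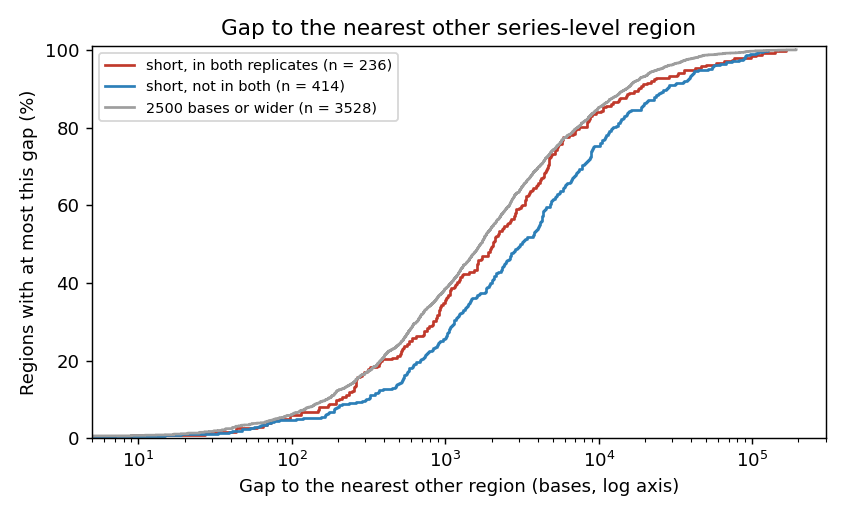
Lines give, for each class of series-level arm region, the percent of regions whose gap to the nearest other region, in bases on a log axis, is at most the value shown. The line of the 236 short shared regions (median 2039 bases) runs between that of the other short regions (3110 bases) and that of the wider regions (1695 bases).

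Score showed little relation to the distance to a neighbour. The median score was 0.501 for the 83 regions with a gap under 1 kb, 0.505 for the 90 from 1 to under 5 kb, 0.536 for the 46 from 5 to under 25 kb and 0.499 for the 17 at 25 kb or more (Spearman rho of gap and score 0.02 over the 236 regions). The regions nearest to a neighbour and those farthest from one were also alike in how well the replicates matched, with medians of 86.8% and 85.9% of combined bases in common.

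The 5 most isolated short shared regions lay between 98527 and 164661 bases from any other region, and their 25 kb surroundings held none. On X from 13891606 to 13893574 the region scored 0.401 in the series-level set, 0.423 in replicate 1 and 0.634 in replicate 2, and the replicate regions shared 96.9% of their combined bases. On 3R from 19348340 to 19350592 the scores were 0.401, 0.546 and 0.712, and on 3R from 12633928 to 12636248 they were 0.428, 0.445 and 0.649. On 2L from 14491566 to 14493978 they were 0.456, 0.528 and 0.799, with 54.7% of the combined bases shared, the lowest of the 5. On 3R from 2031668 to 2034008 they were 0.648, 0.546 and 0.932. Of the 17 regions without a neighbour within 25 kb, 7 lay on 3R, 4 on 2L, 4 on 3L, 2 on X and 0 on 2R or chromosome 4.

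Along the chromosomes the short shared regions were spread thinly. There were 2.01 per Mb on the autosomal arms (2L to 3R), 1.61 per Mb on X and 4.44 per Mb on chromosome 4, the small dot chromosome, where the value rests on 6 regions. The densities depend on the rule. Without replicate 2 they were 3.72 per Mb on the autosomal arms and 3.08 on X, and with regions within 1 kb merged chromosome 4 had 2.22 per Mb. As a share of the series-level regions of the same arm they made up 6.49% on 3R (62 of 955), 6.38% on 3L (51 of 800), 6.04% on 2R (51 of 844), 4.57% on X (36 of 788) and 4.23% on 2L (30 of 710). The Wilson intervals of these 5 shares overlap, the outermost being 5.10 to 8.24 on 3R and 2.98 to 5.97 on 2L. As a share of the short regions of the arm they differed more, with 25.2% on 2L (30 of 119, interval 18.3 to 33.7) against 41.6% on 3R (62 of 149, 34.0 to 49.6) and 41.8% on 3L (51 of 122, 33.4 to 50.7). The share of short regions was 40.0% on chromosome 4, 36.7% on 2R and 34.0% on X. These intervals take regions as independent and hold counting error alone, and the difference between arms was not tested. As a share of all its regions, chromosome 4 had 7.41% (6 of 81, interval 3.44 to 15.2). The higher density there thus went with a higher density of all regions, at 59.9 per Mb against 34.3 per Mb on the autosomal arms.

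Of 117 blocks of 1 Mb on the 5 large arms, 19 held no short shared region, 37 held 1, 26 held 2 and the most was 7. The blocks with 7 were on 3L from 16000001 to 17000000, with 51 regions in all, and on 3R from 11000001 to 12000000, with 54. A block without any held between 11 and 46 regions in all. Blocks with more regions of any kind tended to hold more short shared ones (Pearson r = 0.470, Spearman rho = 0.416 over 117 blocks, where the short shared regions are part of both counts).

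Short shared regions on X had higher scores than those on the autosomes. The 36 regions on X ran from 0.362 to 1.87 in the series-level set with a median of 0.636, against 0.273 to 1.27 and a median of 0.497 for the 194 on the autosomal arms. In replicate 1 the medians were 0.659 on X and 0.530 on the autosomal arms, and in replicate 2 they were 0.835 and 0.689. X had the highest median of the 6 chromosome arms in each of the 3 lists. Next came chromosome 4, on 6 regions, in the series-level set (0.555) and in replicate 1 (0.596), and 2L in replicate 2 (0.707). Of the autosomal arms 2L to 3R, 2R was the highest in the series-level set (0.514) and in replicate 1 (0.558). The ranges overlapped widely. Of the X regions, 28 of 36 were at or above the median of all short shared regions, against 87 of 194 on the autosomal arms.

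Widths on X were only slightly larger, with medians of 2275 bases on X and 2225 on the autosomal arms, and the difference was present at like width. Between 1500 and 1999 bases the median score was 0.407 for 7 regions on X and 0.359 for 33 on the autosomal arms. Between 2000 and 2249 bases it was 0.610 for 9 on X and 0.469 for 71 on the autosomal arms, and between 2250 and 2499 bases 0.784 for 20 on X and 0.609 for 90 on the autosomal arms. In replicate 1 the medians in these bands were 0.432, 0.648 and 0.762 on X, against 0.395, 0.512 and 0.631 on the autosomal arms. In replicate 2 they were 0.666, 0.784 and 0.920 on X, against 0.630, 0.630 and 0.768 on the autosomal arms.

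The short regions not in both replicates also scored higher on X, with medians of 0.430 on X and 0.378 on the autosomal arms, while the wider regions had medians of 1.60 on X and 1.61 on the autosomal arms. The higher scores were therefore found over short regions of both kinds and not in the median of wider ones, which mixes widths. Wider regions had a median width of 5108 bases on X and 5301 on the autosomal arms. At like width in the series-level set, X was also higher between 2500 and 2999 bases (0.874 against 0.848). It was higher between 3000 and 3999 bases (1.32 against 1.30) and at 6000 bases or more (1.84 against 1.78). Between 4000 and 5999 bases it was lower (1.60 against 1.62). The 2 replicates share a strain, a stage and a protocol, and with 2 libraries no test across samples was made.

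**Figure D5:**
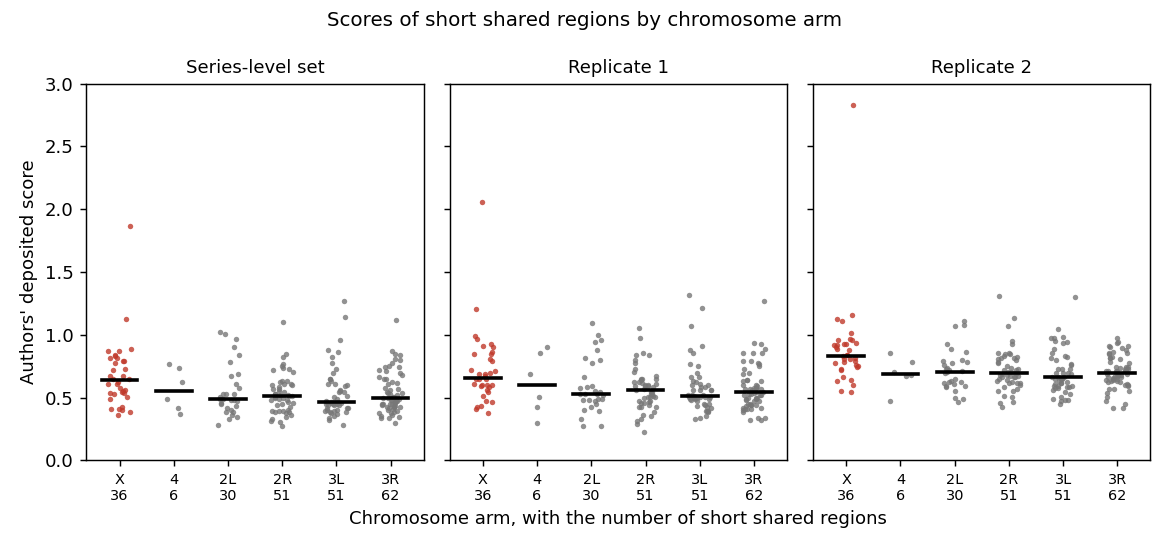
Points are the 236 short shared regions by chromosome arm, with the authors' deposited score in the series-level set, in replicate 1 and in replicate 2, and black bars are medians. X, in red, has the highest median in each panel (0.636, 0.659 and 0.835), and its points overlap those of the other arms.

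None of the 6 regions on chromosome 4 reached a score of 1. They ran from 25244 to 27710, from 174260 to 176182, from 339258 to 341504, from 767448 to 769828, from 823840 to 826024 and from 988940 to 990952. Their series-level scores were 0.769, 0.371, 0.734, 0.488, 0.622 and 0.420, with a median of 0.555 against 0.497 on the autosomal arms. In replicate 1 the scores ran from 0.301 to 0.906 with a median of 0.596, against 0.530 on the autosomal arms. In replicate 2 they ran from 0.471 to 0.852 with a median of 0.690, against 0.689 on the autosomal arms. With 6 regions, no direction is read from these medians. The wider regions had median series-level scores of 1.91 on chromosome 4 and 1.61 on the autosomal arms. The strongest of the 6, at the left end of the sequence, lay 59 bases from a neighbour, and the regions at 174260 and 823840 lay 8749 and 15099 bases from wide neighbours with scores of 2.91 and 2.86.

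The strongest short shared region of the arms not yet named was on 2L from 5093636 to 5096110, with a score of 1.03 in the series-level set, 1.10 in replicate 1 and 0.923 in replicate 2, and it lay 581 bases from a neighbour. On 2R it was the region from 10532334 to 10534816, with scores of 1.10, 1.05 and 1.31, and 19489 bases to the nearest region. Both arms thus had a leading region above 0.880, the level that 25% of all arm regions fall under, and neither came near the leading region of X.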

How the data were processed

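ChIP-seq for H3K36me3 was measured in 2 ChIP libraries and 2 input libraries of wild-type embryos. Reads were aligned with Bowtie 0.12.7, per the submitters' processing notes. Not given in the sources used here are the caller, its threshold and the making of the series-level set. Coordinates are those of FlyBase release 5, per the file headers. The deposited score is the authors', 1 number per region. Pairs of score values, each held by more than 1 region, were compared. In the series-level set, 2 raised to their difference was a ratio of small whole numbers (denominator up to 100, tolerance 1e-09) in 456 of 1431 pairs. Base e gave 0 and base 10 gave 5. With base 2 it was 299 of 1326 pairs in replicate 1 and 2155 of 14196 in replicate 2, against 2 and 10 with base 10. Most pairs gave no such ratio. Scores were read as base-2 logarithms up to an unknown constant, which these counts do not settle. Scores and coordinates were used as deposited, with no filter. In the series-level set 100% of arm regions start at an even base and have an odd width, against 49.7% and 48.7% in replicate 1, so its edges lie on a coarser grid of unstated origin.

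The classes, gaps, covered shares and replicate matches were computed in pandas 2.3.3 and numpy 2.4.6 under Python 3.11.15, intervals and correlations in scipy 1.17.1 and figures in matplotlib 3.10.9, and the rule was tested on simulated regions. Where several regions of a replicate matched, the one with most shared bases gave the width and score. Region lists have no counts, so the precision per region is unknown. Regions of 1 list are not replicates and there are 2 replicates, so no p-value was computed. The regions and all comparisons were chosen with earlier results of these data known. Named regions are the 5 highest, 5 lowest and 5 most isolated, the 3 widest, 3 narrowest and 3 just outside the limit, the leading one per arm, and the 3 most unlike in replicate width; the region of 2698 bases, the 6 on chromosome 4 and the blocks were added after their values were seen, as were the comparison of X with the autosomal arms and the comparisons at like width. Inputs were not analysed here on their own.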

Additional observations from a re-analysis of the deposited data

How the results depend on the processing

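Of 85 alternative settings of 12 results, 43 moved a value by less than its error or kept a count or density within 1.5 times. The other 42 moved it further. The error was an interval over regions of 1 list or, for widths, the SD of the 2 replicate medians. Only the correlation could have turned its sign, and it did not. Leaving out a replicate kept the correlation at 0.721 by construction, since it used only regions with 1 match in each replicate. Requiring 50% of both lengths changed none of the 12 results, and the widths of the replicate regions left little room for a change. With a width limit of 2000 bases the rule took 41 regions (10.6% of short ones), with a median score of 0.370, median widths of 1744 bases in replicate 1 and 1586 in replicate 2, 97.6% also under the limit in both replicates, 0.740 per Mb on chromosome 4, 0.312 on X and 0.342 on the autosomal arms, and a correlation of replicate scores of 0.163. With a limit of 3000 bases it took 538 (54.6%), with 0.722, 2428.5 and 2203 bases, 8.14, 4.24 and 4.47 per Mb and a correlation of 0.845. Both limits change width and score by construction. With regions within 1 kb merged it took 153, with a median gap of 4365 bases, 22.3% of the surroundings covered, and 2.22 per Mb on chromosome 4 and 1.29 on the autosomal arms; merging removes short gaps by construction. Among the higher-scored 50% of arm regions it took 1 region, the leading one on X (20% of 5 short regions, score 1.87, 2302 and 1387 bases wide, 100% also under the limit, gap 23567 bases, surroundings 2.87%), so the densities were 0 on chromosome 4, 0.0446 on X and 0 on the autosomal arms, and no correlation could be had. Without replicate 1 or replicate 2 the count ranged from 273 to 436, the share of short regions from 42.0% to 67.1%, the median score from 0.450 to 0.488, and the density from 1.87 to 3.08 per Mb on X and from 2.31 to 3.72 on the autosomal arms; the higher values of counts, shares and densities came without replicate 2, which held fewer of the short regions. The gap and the covered surroundings moved by less than their error under both width limits and without either replicate, and the surroundings also with 10 or 50 kb to each side. The gene overlap set out as a result was not run, since no annotation of the files' release was used here. No paired analysis was possible because replicate numbers only join each input to a ChIP list, and inputs carry no region list here. Without read counts, weak enrichment below the calls cannot be told from none.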

Other observations

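Most narrow regions of the replicate lists lay outside the short shared regions. The series-level set itself held 650 arm regions under 2500 bases before the match to both replicates was required. Replicate 1 held 579 arm regions under 2500 bases, of which 236 lay in a short shared region, 196 in another short region and 142 in a wider series-level region. Replicate 2 held 693, of which 234 lay in a short shared region, 35 in another short region and 419 in a wider one. Where 1 region of each replicate matched 1 series-level region and both were under 2500 bases, which gave 298 cases, 235 were short shared regions and 63 had a series-level region of 2500 bases or more. Those 63 had a median width of 2567 bases and a median score of 0.641, and the widest measured 3809 bases.

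Off the arms, 8 of 78 short series-level regions on heterochromatin scaffolds were in both replicates (10.3%, 95% Wilson interval 5.29 to 19.0). On all other sequences off the arms, grouped here as U, the count was 13 of 111 (11.7%, interval 6.97 to 19.0). On the arms it was 236 of 650. The 13 on U had a median score of 1.03, with a range from 0.755 to 2.43, and the short U regions not in both replicates had a higher median, 1.30. The 8 on heterochromatin scaffolds had a median of 0.596, against 0.498 for the other short regions there. On the arms the medians were 0.515 and 0.389.

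In all regions of like width, whether matched or not, X scores were higher than those of the autosomal arms at low widths in each list. Between 2000 and 2499 bases the medians were 0.618 on X and 0.497 on the autosomal arms in the series-level set, 0.701 and 0.605 in replicate 1, and 0.977 and 0.854 in replicate 2. In the same order, they were 0.874 and 0.848, 1.012 and 1.013, and 1.26 and 1.10 between 2500 and 2999 bases. From 3000 to 3999 bases they were 1.32 and 1.30, 1.49 and 1.38, and 1.58 and 1.53. Between 4000 and 5999 bases the order was turned, with 1.60 on X and 1.62 on the autosomal arms, 1.66 and 1.68, and 1.67 and 1.71, and at 6000 bases or more X was the higher again, with 1.84 and 1.78, 1.92 and 1.83, and 1.91 and 1.83. These values are descriptions and were not tested.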
